A study of Homo sapiens with 2 samples.

Results

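Glucose handling was described through 36 named genes, chosen by symbol, that encode glucose carriers, hexokinases, the enzymes of glycolysis, lactate enzymes and carriers, and the enzymes of the pentose phosphate, glycogen and gluconeogenic routes. They were 36 of the 19607 genes in the table, and for 34 of them the reads of both libraries came to at least 10. RNA came from CWR22rv1, a human prostate cancer cell line that expresses the androgen receptor. One library was labelled Akt1/2 knockout and 1 was labelled wild type, and they are called Akt1/2 DKO and control cells here. The knockout was made with Cas9 plasmids carrying guides against both genes, transfected together with a separate plasmid carrying a puromycin marker. Single-cell clones were then isolated, so the Akt1/2 DKO library stands for cells of clonal origin. The labels do not say which clone was sequenced, nor whether the control cells went through the same selection and cloning.

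Glucose enters cells through carriers of the SLC2A family, is trapped by hexokinases, and is then broken down by glycolysis to pyruvate, which lactate dehydrogenases turn into lactate. Side branches lead to the pentose phosphate pathway, which makes NADPH and ribose, and to glycogen, the storage polymer. Akt is known for promoting glucose uptake and glycolysis, and it phosphorylates GSK3, the kinase that inhibits glycogen synthase. Prostate luminal cells are unusual in accumulating citrate, and early prostate tumours often take up less glucose than other tumours.

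Each condition was 1 library, so no difference had a replicate check and no test was made. A gene was called higher or lower when its TMM-normalised reads differed at least 1.5-fold, the limit used in the study, and the 95% intervals are exact ones for the error of counting reads alone. In bulk RNA, fewer cells that express a gene and less RNA per cell cannot be told apart. The libraries held 9970815 reads in control and 10718634 in Akt1/2 DKO cells, and 3 reads, the floor, corresponded to 0.301 and 0.280 CPM. AKT1 was 4.96-fold lower and AKT2 3.93-fold lower in the Akt1/2 DKO library. All 10 prostate luminal markers had reads above the floor in both libraries, and their summed reads were 24236 in control and 38631 in Akt1/2 DKO cells. Of the 4 basal markers, KRT5 and TP63 were at 0 in both, KRT14 had 2 and 0 reads and KRT15 had 13 and 0. The 6 fibroblast markers summed to 138 and 155 reads and the 3 endothelial markers to 1 and 2. Of the 4 leukocyte markers, which summed to 52 and 70 reads, 3 were at or under the floor. The 3 neuroendocrine markers summed to 1418 and 1244 reads, with CHGA at 340 and 2.

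Most of the glucose genes stayed within the limit, and those past it were mostly higher. Of the 34 genes, 9 were higher (SLC2A12, HK2, ALDOA, ALDOC, LDHB, SLC16A1, SLC16A3, GYS1 and PYGL), 2 were lower (PFKFB2 and RPIA) and 23 differed by less than 1.5-fold. The 11 changed genes were 32.4% of those measured, beside 30.9% of all 13318 genes (15.9% higher and 15.0% lower), so the share that changed was near that of the whole table. Their split was 26.5% higher and 5.88% lower. With GAPDH, the reference gene of the study's quantitative PCR, set equal in both libraries, it was 16 higher and 0 lower among these genes and 5296 higher and 998 lower among all, because that scaling raised the median log2 fold change of all genes from 0.0063 to 0.48. The median log2 fold change of the 34 genes was 0.10, and their median absolute log2 fold change was 0.41, beside 0.33 for all genes.

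The share of all genes that changed was smaller among deeply counted genes, and that of the glucose genes was about the same. Among genes with at least 1000 reads together, 8 of 26 glucose genes changed (30.8%), 7 of them higher, beside 15.1% of 4928 genes in all, of which 5.70% were higher and 9.35% lower. At a minimum of 100 reads together, 10 of 33 changed (30.3%), beside 23.2% of all genes. The counting interval excluded no change for 27 of the 34 genes, 16 of which differed by less than 1.5-fold. Of the 11 changed genes, 7 had an interval wholly past 1.5-fold, and the limit lay inside the interval of LDHB, PFKFB2, RPIA and PYGL. Next to the limit, HK1 at 1.49-fold higher was just short of it, while RPIA at 1.53-fold lower and LDHB at 1.53-fold higher were just past it. At a 2-fold limit 5 of the 34 genes changed, all higher, beside 18.0% of all genes. With an assumed coefficient of variation of 0.2, edgeR's exact test called 3 of them, beside 10.4% of all genes, and with one of 0.4 it called 1, beside 3.18%.

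**Figure D1:**
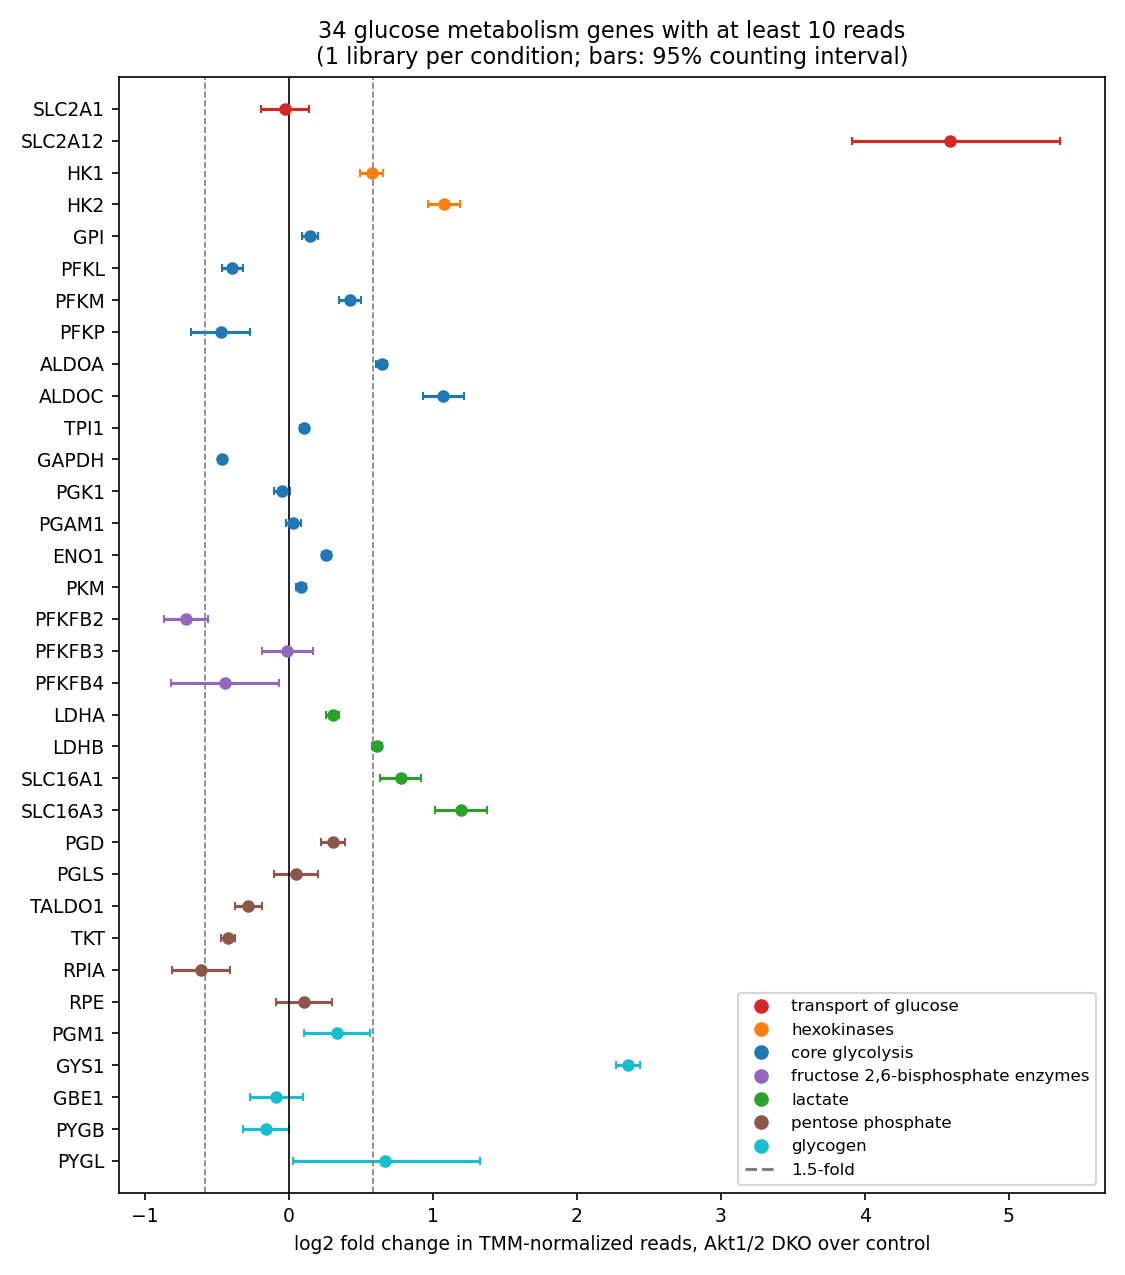
Each point is the log2 fold change in TMM-normalised reads of 1 gene, Akt1/2 DKO over control, with its 95% counting interval and coloured by role; dashed lines mark 1.5-fold. SLC2A12 (4.59) and GYS1 (2.35) stand far to the right, and most enzymes of core glycolysis lie within the dashed lines.

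The regions before the start sites of 4 of the 5 genes with the largest rises are shown first, since these genes were farthest from control. For the other one, ALDOC, no exon-free bases were left in the window. RefSeq promoter windows of the build GRCh38.p14, 250 bases before to 50 after a start, were matched for 33 of the 36 genes (60 windows), and each run below keeps only the bases before the start that lie in no annotated exon. Each is printed in the direction of its gene, and capitals mark ACGTG on either strand, which includes the palindrome CACGTG. The GYS1 run is chr19:48993311-48993447 on the minus strand, the SLC2A12 run chr6:134052637-134052874 on the minus strand, the HK2 run chr2:74834920-74835169 on the plus strand and the SLC16A3 run chr17:82228792-82229031 on the plus strand.
GYS1: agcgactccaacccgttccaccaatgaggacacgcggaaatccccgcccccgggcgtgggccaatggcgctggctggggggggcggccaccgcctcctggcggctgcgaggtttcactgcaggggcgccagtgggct
SLC2A12: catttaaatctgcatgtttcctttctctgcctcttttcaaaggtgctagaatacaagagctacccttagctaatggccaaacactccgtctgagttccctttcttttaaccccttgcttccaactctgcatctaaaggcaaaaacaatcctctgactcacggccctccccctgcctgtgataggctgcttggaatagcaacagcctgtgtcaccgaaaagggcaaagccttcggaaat
HK2: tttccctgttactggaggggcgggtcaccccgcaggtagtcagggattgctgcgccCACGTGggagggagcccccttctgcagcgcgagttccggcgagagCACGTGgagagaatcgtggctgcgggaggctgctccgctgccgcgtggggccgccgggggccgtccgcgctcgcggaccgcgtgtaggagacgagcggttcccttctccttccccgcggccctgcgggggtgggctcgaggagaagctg
SLC16A3: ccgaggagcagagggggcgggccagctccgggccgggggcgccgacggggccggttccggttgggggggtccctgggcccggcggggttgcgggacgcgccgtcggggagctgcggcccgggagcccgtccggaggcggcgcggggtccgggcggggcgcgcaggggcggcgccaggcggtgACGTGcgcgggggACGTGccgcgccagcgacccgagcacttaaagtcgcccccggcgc

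ACGTG is the core of the element that hypoxia-inducible factors bind, and CACGTG is an E-box, the kind of element bound by MYC and by the glucose-sensing factor MLXIPL. The HK2 run held CACGTG at 2 places and the SLC16A3 run held ACGTG at 2, while the GYS1 and SLC2A12 runs held neither. SLC16A3 had several start sites, and its other 2 exon-free runs, chr17:82228185-82228396 and chr17:82231982-82232231, held no ACGTG, so the run shown was chosen for its motif. The HK2 run precedes a start inside the annotated gene, since no exon-free bases were left before the first start. Over the full windows, ACGTG was present in 19 of 60 (31.7%), beside 21.4% of all 35116 windows, and CACGTG in 6 of 60, beside 7.26%. Here 33 genes had 60 windows and all 27305 genes had 35116, so the glucose genes had more windows per gene in which to match. By gene, ACGTG was in 15 of 33, beside 24.9% of all genes. Of these, ALDOA, ALDOC, HK2 and SLC16A3 were higher. The others were within the limit: GAPDH, GBE1, GPI, LDHA, PFKFB3, PFKM, PFKP, PGD, PGK1, PGM1 and TPI1. TGTTTAC, a forkhead motif searched on both strands, was found in 1 window (1.67%), that of PGM1, beside 3.42% of all windows. These are letters in a window, not measured binding.

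Glucose carriers differed sharply from each other. SLC2A1 (GLUT1), the widely expressed basal carrier, had 582 reads in control and 633 in Akt1/2 DKO cells, 0.981-fold (95% interval 0.875 to 1.10), and its FPKM, a level per transcript length, was 15.8 and 16.0. SLC2A12 (GLUT12, ENSG00000146411), a carrier found in insulin-sensitive tissues and in prostate and breast tumours, lies on chromosome 6 from 133988697 to 134052636 on the minus strand. It had 18 reads in control and 480 in Akt1/2 DKO cells, 24.1-fold higher (95% interval 15.1 to 40.9). Its FPKM went from 0.41 to 9.95, so that it moved from 2.53% to 38.4% of the summed FPKM of SLC2A1, SLC2A3 and SLC2A12. That sum leaves out the other carriers of the family. Of them, SLC2A8 had an FPKM of 12.6 and 15.3, SLC2A11 of 7.21 and 4.64 and SLC2A10 of 1.16 and 6.58. SLC2A3 (GLUT3), the high-affinity neuronal carrier, had 0 reads in both libraries, which allows up to 0.301 and 0.280 CPM, and so did SLC2A14, its near-identical copy.

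The reads of SLC2A12 are not clear of its neighbours. Of its 4468 exon bases, 1736 are shared with TBPL1, a TBP-like transcription factor gene that runs on the opposite strand, and TBPL1 had 170 reads in control and 1822 in Akt1/2 DKO cells, 9.67-fold higher (95% interval 8.26 to 11.4). Whether the counting used strand is not given in the sources used here, so reads of these genes in the shared part cannot be told apart. On the other side, SGK1, a kinase related to Akt, had 2 and 90 reads, with a control count under the floor. Its TMM-normalised ratio was 40.6 without the floor (95% interval 10.9 to 340) and 27.1 with it. The next genes outward, RPS12 and HBS1L, were at 1.24-fold and 0.861-fold. Without SLC2A12, 10 genes changed and 8 were higher.

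Hexokinases, which phosphorylate glucose and so trap it in the cell, had more reads in Akt1/2 DKO cells as a pair, and 1 of them passed the limit. HK2 (ENSG00000159399, chromosome 2 from 74833981 to 74893359), the inducible hexokinase of tumours and muscle, had 953 reads in control and 2227 in Akt1/2 DKO cells, 2.11-fold higher (95% interval 1.95 to 2.28). HK1, the constitutive form, had 2016 and 3326 reads, 1.49-fold (95% interval 1.41 to 1.57). Both hexokinases summed to 1.69-fold. HK1 stayed the main form by level per length, with an FPKM of 55.7 and 85.5, beside 16.4 and 35.9 for HK2. The HK2 to HK1 read ratio was 1.42 times that of control (95% interval 1.29 to 1.56), and the share of HK2 in the FPKM of the pair was 22.8% in control and 29.6% in Akt1/2 DKO cells. The 4 expressed neighbours of HK2 lay between 0.902-fold and 1.09-fold.

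Core glycolysis, the 12 genes from GPI to PKM, was close to level. Of these, 2 were higher (16.7%, beside 15.9% of all genes) and none was lower (beside 15.0%). Their median log2 fold change was 0.09. Both of the higher genes encode aldolases, which split the hexose bisphosphate into triose phosphates. ALDOA (ENSG00000149925, chromosome 16 from 30064164 to 30070457), the main form, had 7764 reads in control and 13439 in Akt1/2 DKO cells, 1.56-fold higher (95% interval 1.52 to 1.61). ALDOC (ENSG00000109107, chromosome 17 from 28573115 to 28577264), the form known from brain, had 581 and 1353 reads, 2.10-fold higher (95% interval 1.90 to 2.32). ALDOC remained the minor aldolase, at 5.81% of their summed FPKM in control and 7.52% in Akt1/2 DKO cells. Part of ALDOA's exon sequence, 1657 of 3916 bases, is also annotated to another gene model on the same strand, AC093512.2, which has no row in the table.

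GAPDH, the triose phosphate dehydrogenase often used as a reference gene, was the most abundant of the 36 genes by FPKM in both libraries and was lower in Akt1/2 DKO cells. It had 51120 reads in control and 40953 in Akt1/2 DKO cells, 1.38-fold lower (95% interval 1.37 to 1.40), and its FPKM was 3691 and 2728. It thus stayed within the 1.5-fold limit, but it made up 31.2% of the reads of the 36 genes in control and 21.3% in Akt1/2 DKO cells. The summed reads of core glycolysis were at 0.967-fold with GAPDH and at 1.14-fold without it, and with GAPDH set equal the sum of all 12 was at 1.34-fold. The gene has 62 named pseudogenes, the most of these genes, and how the counting treated reads that match several copies is not given in the sources used here.

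The phosphofructokinases carry out the committed step of glycolysis, and their values lay on both sides of 0 within the limit. PFKM, the muscle form, had 2306 reads in control and 3426 in Akt1/2 DKO cells (1.34-fold, 95% interval 1.27 to 1.41), and PFKL, the liver form, had 3190 and 2690 (1.31-fold lower, 95% interval 1.25 to 1.38, but at a log2 fold change of 0.07 with GAPDH set equal). PFKP, the platelet form, had 445 and 355 reads (1.39-fold lower). The order of the main forms by FPKM was thereby exchanged: PFKL led in control, with 48.9% of the summed FPKM and PFKM at 43.3%, whereas in Akt1/2 DKO cells PFKM held 58.7% and PFKL 36%. The PFKM to PFKL read ratio was 1.76 times that of control (95% interval 1.64 to 1.90), a comparison within each library that does not depend on the scaling between them. PFKP and PFKL kept their proportion within counting error, with a ratio of ratios of 0.946 (95% interval 0.815 to 1.10). Of PFKM's 7318 exon bases, 628 are shared with SENP1 on the opposite strand, which had 774 and 846 reads.

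The other 6 enzymes of core glycolysis differed little. GPI, the isomerase of the hexose phosphates, was at 1.11-fold, and TPI1, which interconverts the triose phosphates, was at 1.07-fold. PGK1 and PKM, the kinases that make ATP, were at 0.965-fold and 1.06-fold. PGAM1, the mutase between them, was at 1.02-fold and the enolase ENO1 at a log2 fold change of 0.26. These values rest on 4612 to 21378 reads per library and gene, so counting error is small and the missing quantity is the spread between cultures. PKM is given as 1 value per gene, so its muscle and tumour splice forms were not told apart.

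**Figure D2:**
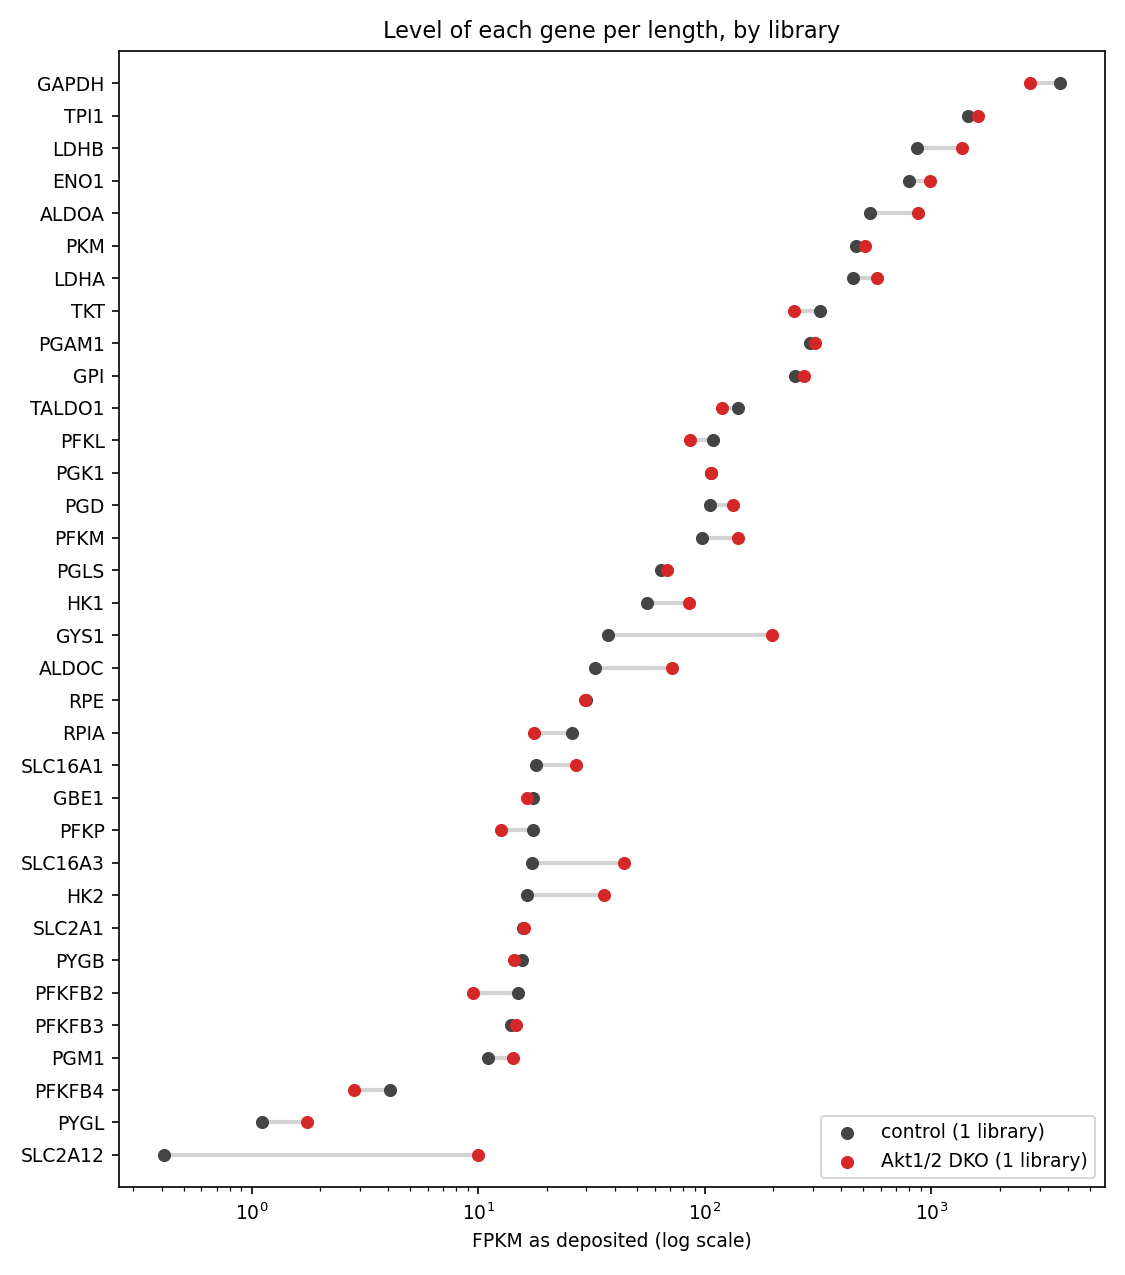
FPKM, the deposited level per transcript length, is plotted on a log axis for the 34 expressed genes in the control library (dark) and the Akt1/2 DKO library (red), ordered by control level. The lines are long for SLC2A12 and GYS1 and short for most glycolytic enzymes, and GAPDH leads in both libraries.

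The PFKFB enzymes make and break down the sugar bisphosphate that activates phosphofructokinase. PFKFB2 (ENSG00000123836, chromosome 1 from 207034366 to 207081024), the heart form and a known Akt substrate, had 874 reads in control and 590 in Akt1/2 DKO cells, 1.64-fold lower (95% interval 1.48 to 1.83). PFKFB3, the inducible form with the highest kinase activity, had 504 and 554 reads (0.991-fold, 95% interval 0.877 to 1.12). PFKFB4, a form studied in prostate tumours, had 135 and 110 reads (1.36-fold lower, 95% interval 1.05 to 1.77, but at a log2 fold change of 0.02 with GAPDH set equal). By FPKM, PFKFB2 was slightly ahead of PFKFB3 in control (45.3% and 42.3% of the family), and PFKFB3 led in Akt1/2 DKO cells (54.3% and 35.1%). The PFKFB3 to PFKFB2 read ratio was 1.63 times that of control (95% interval 1.39 to 1.91). PFKFB2 shares 315 of its 10197 exon bases with YOD1 on the opposite strand, which had 513 and 680 reads.

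The lactate genes were the group with the largest share of higher genes, 3 of 4, beside 15.9% of all genes. Their summed reads were at 1.44-fold. With so few genes the share rests on single calls: LDHB lay near the limit, and SLC16A1 fell short of it by FPKM. SLC16A3 (MCT4, ENSG00000141526, chromosome 17 from 82228397 to 82261129), the carrier that exports lactate from glycolytic cells, had 354 reads in control and 899 in Akt1/2 DKO cells, 2.29-fold higher (95% interval 2.02 to 2.60). SLC16A1 (MCT1, ENSG00000155380, chromosome 1 from 112911847 to 112957013), which carries lactate in either direction, had 600 and 1138 reads, 1.71-fold higher (95% interval 1.55 to 1.89). Both carriers were thus higher, and SLC16A3 rose from 49.0% to 62.0% of their summed FPKM. Of SLC16A3's 8995 exon bases, 482 are shared with CSNK1D on the opposite strand, which had 1530 and 1562 reads. The reads of SLC16A1 rose more than its FPKM, which went from 18.0 to 27.0, and it was the single gene of 32 compared whose FPKM and read ratios parted by more than 0.2 on the log2 scale beyond the median of all genes, as did 11.5% of all genes.

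LDHB (ENSG00000111716, chromosome 12 from 21635342 to 21757857), the lactate dehydrogenase subunit of oxidative tissues, had 11314 reads in control and 19165 in Akt1/2 DKO cells, 1.53-fold higher (95% interval 1.49 to 1.56). LDHA, the subunit of glycolytic tissues, had 7103 and 9711 reads, a log2 fold change of 0.30 (95% interval 0.26 to 0.35). LDHB was the main subunit by FPKM in both libraries, with 65.6% of the pair in control and 70.3% in Akt1/2 DKO cells, and the LDHB to LDHA read ratio was 1.24 times that of control (95% interval 1.19 to 1.29). Relative to the median of its chromosome, LDHB was at a log2 fold change of 0.57, within the limit. Of its 4 expressed neighbours, ABCC9 was at 1.16-fold and the other 3 passed the limit: GOLT1B was 1.70-fold higher, KCNJ8 went from 23 to 1177 reads and SPX from 0 to 78. Of LDHB's 2983 exon bases, 997 are also annotated to AC010197.2 on the same strand, which has no row in the table. The part of the surrounding region in the value of LDHB was not tested.

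Of the 6 pentose phosphate genes 1 was lower (16.7%, beside 15.0% of all genes) and none higher (beside 15.9%). Their summed reads were at 0.853-fold, or at 1.18-fold with GAPDH set equal. RPIA (ENSG00000153574, chromosome 2 from 88691644 to 88750935), which makes ribose phosphate for nucleotides, had 483 reads in control and 351 in Akt1/2 DKO cells, 1.53-fold lower (95% interval 1.33 to 1.76). TKT and TALDO1, the transketolase and transaldolase of the non-oxidative branch, were 1.34-fold and 1.22-fold lower, with 7437 and 6150 reads for TKT, and with GAPDH set equal their log2 fold changes were 0.05 and 0.19. PGD, the dehydrogenase of the oxidative branch that yields NADPH, was at 1.23-fold, with 1969 and 2693 reads. PGLS, the lactonase before it, was at 1.03-fold and RPE, an epimerase, at 1.07-fold. With TMM, both oxidative enzymes were thus above 0 on the log2 scale and 3 of the 4 non-oxidative ones below it, all but RPIA within 1.5-fold.

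Glycogen synthase stood out among the storage genes. GYS1 (ENSG00000104812), the muscle-type synthase that builds glycogen and is held inactive by GSK3 phosphorylation, lies on chromosome 19 from 48968125 to 48993310 on the minus strand. It had 1336 reads in control and 7573 in Akt1/2 DKO cells, 5.11-fold higher (95% interval 4.82 to 5.42), and its FPKM went from 37.2 to 197.8. By FPKM it moved from place 18 among the 36 genes to place 11. Of the 4928 genes with at least 1000 reads together, 33 (0.670%) were as far or farther up, GYS1 included. Of the same genes 71 were as far up as SLC16A3, 89 as HK2 and 90 as ALDOC.

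The genes directly beside GYS1 stayed within the limit. RUVBL2, which is separated from it by 137 bases and runs in the opposite direction, had 2366 and 3164 reads (1.21-fold, 95% interval 1.14 to 1.27), and FTL on the other side was at 1.08-fold. Farther out, BAX was at 0.670-fold, and CTB-60B18.10 had 12 and 99 reads. No exon of GYS1 overlapped another gene model. The log2 fold change of GYS1 was 2.35 by TMM and stayed between 2.35 and 2.82 with the other scalings and by FPKM.

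The remaining glycogen genes did not follow GYS1. PGM1, the mutase that links glucose phosphates to glycogen, had 273 and 381 reads (1.26-fold, 95% interval 1.07 to 1.48), and the branching enzyme GBE1 had 483 and 504 (0.941-fold, 95% interval 0.829 to 1.07). PYGB, the brain-type phosphorylase that breaks glycogen down, had 648 and 642 reads (0.894-fold, 95% interval 0.800 to 0.998). PYGL (ENSG00000100504, chromosome 14 from 50857891 to 50944736), the liver-type phosphorylase, was 1.59-fold higher with 33 and 58 reads, the fewest of the 34 genes, and its interval of 1.02 to 2.51 spans the limit. FBP1, the gluconeogenic phosphatase that opposes phosphofructokinase, had 0 reads in both libraries.

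Chromosome position touched 3 of the genes. Expressed genes on chromosome 3 had a median log2 fold change of -0.53, with 579 of 666 genes lower, whereas on every other chromosome the median was between -0.20 and 0.12. TKT, PFKFB4 and GBE1 lie on chromosome 3 and had log2 fold changes of -0.42, -0.44 and -0.09. Relative to the chromosome they were at 0.11, 0.09 and 0.44. The part of the chromosome in their values was not tested. With every gene set relative to its chromosome, 10 of the 34 changed, and the median was 0.13.

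Other genes of glucose use were counted from 8 lists written from general knowledge with earlier results of these data known. Of 131 genes listed, 130 were in the table and 101 were measured, of which 19 were higher and 18 lower (36.6%, beside 30.9% of all genes). Among 6 other carriers 3 were higher (50%, beside 15.9% of all genes). SLC2A10 was at 51 and 279 reads (4.93-fold, 95% interval 3.65 to 6.79) and SLC2A13, a myo-inositol carrier, at 33 and 135 (3.69-fold, 95% interval 2.51 to 5.58). Of 11 other glycolytic genes, 2 were higher and 1 lower (27.3%, beside 30.9% of all genes). ENO2, the neuronal enolase, went from 1404 to 3198 reads (2.05-fold higher, 95% interval 1.93 to 2.19) and from 6.75% to 11.3% of the FPKM of ENO1 and ENO2. TIGAR, a phosphatase that opposes PFKFB3, was 1.53-fold lower.

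Genes around glycogen synthase went both ways, with 4 of 19 higher and 3 lower (36.8%, beside 30.9% of all genes). PPP1R3D and PPP1R3F, which target protein phosphatase to glycogen, were 3.03-fold and 2.12-fold higher, and PHKA1, a subunit of the kinase that activates phosphorylase, was 2.02-fold higher. GYG1, the primer of glycogen chains, was 2.05-fold lower and GSK3B 1.62-fold lower. Both of these lie on chromosome 3, as do PDHB and VHL, and all 4 measured genes of the lists on that chromosome were lower.

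In the pentose phosphate list 1 of 7 genes was higher and 2 were lower (42.9%, beside 30.9% of all genes). PRPS1, which makes the activated ribose of nucleotide synthesis, was 1.60-fold higher. H6PD, the endoplasmic reticulum form of the first enzyme, was 1.61-fold lower. Of 15 genes of hexosamine synthesis and side routes, 4 were higher and 1 lower (33.3%, beside 30.9% of all genes). KHK, the fructose kinase, had 61 and 287 reads (4.24-fold higher), GFPT1, the entry enzyme of hexosamine synthesis, 519 and 1275 (2.22-fold higher), and GPD2, of the glycerol phosphate shuttle, was 1.60-fold higher. SORD, sorbitol dehydrogenase and a known androgen-responsive gene of prostate cells, had 1749 and 951 reads (2.04-fold lower). Gluconeogenesis and pyruvate entry held no higher and 2 lower genes of 14 (14.3%, beside 30.9% of all genes). Among them was PDHB, a subunit of pyruvate dehydrogenase (1.57-fold lower).

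The regulators showed no common direction. Of 13 glucose and oxygen sensing genes, 2 were higher and 4 lower (46.2%, beside 30.9% of all genes). TXNIP and ARRDC4, arrestins that restrain glucose uptake and are induced by glucose, were 1.63-fold and 1.82-fold lower, while MLXIPL, a factor that induces them, was 1.59-fold higher at 47 and 83 reads. VHL, which marks hypoxia-inducible factors for decay, was 1.81-fold lower and EGLN3, an oxygen sensor, 1.55-fold lower. Of 16 other genes known to be induced by hypoxia, 3 were higher and 5 lower, with NDRG1 (2.46-fold), CA12 (1.97-fold), P4HA1 (1.75-fold) lower, BNIP3L lower at a log2 fold change of -0.59 and MXI1 higher at 0.59. Some of the 36 genes are also known to respond to hypoxia. Those named here are examples picked with their values known, not a full list, so no share is drawn from them. HK2, ALDOA, ALDOC and SLC16A3 were higher, while SLC2A1, PGK1, PFKFB3, PFKFB4, LDHA, ENO1 and GAPDH stayed within 1.5-fold.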

How the data were processed

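RNA of 1 Akt1/2 DKO and 1 control library of CWR22rv1 cells was compared. For each gene the authors deposited an estimated count, not normalized, and an FPKM value per library. The submitters' processing notes name fastp 0.20.0, TopHat, Cufflinks, edgeR and the build GRCh38.p10, with no role or order, and the strand setting is not given in the sources used here. The authors' deposited comparison (fold changes, p-values and FDR) was not used. Levels of different genes were compared by the deposited FPKM only.

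Estimated counts were rounded, and 13318 genes with at least 10 reads together were kept. The libraries were scaled by TMM (edgeR 4.0.16, R 4.3.3), with a ratio of 1.11. Folds have exact Clopper-Pearson intervals at 95% (scipy 1.17.1, Python 3.11.15), and ratios of isozyme ratios have normal-approximation intervals of the log odds ratio. A library under 3 reads was set to 3 for calls, and with 1 or 2 reads the TMM-normalised ratio is also printed without this floor. The depths were 9970815 and 10718634 reads, and no interval covers variation between cultures. Positions are from GENCODE release 29 (GRCh38), which held 19571 of 19607 identifiers, and promoter sequences from RefSeq (GRCh38.p14).

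All 36 genes were named by role. Of other lists, changed genes with at least 100 reads together were named, at most 5 per list (some results are not reported here), and neighbouring or overlapping genes were chosen after their values were seen. The genes and lists were chosen with earlier results of these data known. Alternatives were total count, DESeq2 1.42.0, upper-quartile and GAPDH scaling, FPKM, other read filters, a 2-fold limit, shares by FPKM, values relative to the chromosome, a prior count of 1 and an exact test in edgeR at an assumed coefficient of variation of 0.2 or 0.4. The steps were tested on simulated data.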

Additional observations from a re-analysis of the deposited data

How the results depend on the processing

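With 1 library per condition, the spread between cultures and between clones is unknown, and no result here can be told apart from a difference between clones. No paired analysis was possible because only 1 library was made of each cell population. With a 2-fold limit 5 glucose genes changed, all higher (SLC2A12, GYS1, SLC16A3, HK2 and ALDOC), and 0 were lower, beside 2391 of all genes (18.0%). An assumed coefficient of variation of 0.2 in edgeR's exact test left 3 higher (SLC2A12, GYS1 and SLC16A3) and 0 lower, beside 1384 of all genes (10.4%), and one of 0.4 left 1 higher (SLC2A12) and 0 lower, beside 424 (3.18%). Setting GAPDH equal gave 16 higher and 0 lower glucose genes and 6294 changed genes in all. It also raised the median log2 fold change from 0.10 to 0.57 for the 34 genes, from 0.09 to 0.56 for core glycolysis and from 0.0063 to 0.48 for all genes, which follows from its construction. Total count scaling, upper-quartile scaling and FPKM each left 1 lower gene, PFKFB2, as RPIA fell short of the limit while HK1 passed it, and by FPKM SLC16A1 also fell short. DESeq2 size factors and the other read filters kept all 11 calls. Relative to the chromosome medians 10 genes changed, without LDHB, and without SLC2A12, an alternative chosen after seeing the data, 10 changed and 8 were higher. The sign turned only for genes within the limit: SLC2A1, PGK1, PFKFB3 and RPE, whose values lay near 0, under one or more scalings or by FPKM, and PFKL, PFKFB4, TALDO1, TKT, GBE1 and PYGB with GAPDH set equal.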

Other observations

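Values outside the glucose genes are given without explanation. The erythroid markers HBA1 and HBA2, the alpha globin genes, had 1056 and 940 reads in control and 3351 and 3170 in Akt1/2 DKO cells, while HBB had 0 in both. Some neighbours of the glucose genes differed more than the glucose genes themselves: TBX6, near ALDOA, had 15 reads in control and 580 in Akt1/2 DKO cells, CD55, near PFKFB2, had 107 and 1143, and SECTM1, near SLC16A3, had 25 and 131. These neighbours were chosen after their values were seen.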
